A study of Mus musculus with 28 samples.

Results

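DC2 is an immortalized epithelial line of the mouse epididymis (distal caput), the duct in which sperm mature. Confluent DC2 cultures had received corticosterone at 500 ng/ml in 0.1% ethanol, and their medium was replaced on day 3 and again on day 6. The 8 libraries described here, of 28 in the series, were chosen by their column labels and came from these corticosterone cultures: 4 collected on day 3, at the end of exposure, and 4 collected on day 6, after the first 3 days of what the labels call recovery. Cultures that received 0.1% ethanol alone, 4 libraries on day 3 and 4 on day 6, served as the comparison for changes that came with time in culture. The remaining groups (untreated cells on day 0, vehicle on day 9 and corticosterone on day 9) entered only the estimate of spread. Whether replicates came from separate cultures is not given, so p-values measure only the spread between these libraries, and all cells are of 1 line. Strand-specific mRNA libraries were sequenced, and the values are log2 CPM, read counts scaled to library size on a log2 scale.

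Corticosterone is the main glucocorticoid of rodents. It enters cells, binds the glucocorticoid receptor (Nr3c1), frees it from Hsp90 chaperones and lets it act on DNA, where it raises genes such as Fkbp5, Tsc22d3, Sgk1 and Per1 and lowers many inflammatory and growth genes. Enzymes encoded by the Hsd11b genes inactivate or regenerate the hormone, and once hormone is gone the receptor's direct targets usually return within hours to days. In the epididymis, glucocorticoids act on the epithelium that sets the fluid and vesicles around maturing sperm.

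Before the results, 2 of the 8 libraries need to be named because they stood apart. Day 3 replicate 4 lay 0.52 log2 units (root mean square over genes) from the mean of the other 3 day 3 libraries, against 0.34 to 0.37 for those 3, and 2901 genes in it were over 0.5 log2 units from that mean. Its short transcripts were high and its long ones low: the median deviation was 0.38 in the fifth of genes with the shortest transcripts and -0.33 in the fifth with the longest. Day 6 replicate 6 was the lowest of its group for most hormone-raised genes, as described below. The median within-group SD was 0.18 on day 3 of corticosterone and 0.09 to 0.10 in the other 6 groups. The main results that these 2 libraries moved are given with and without them, and the plot of list means shows both.

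**Figure D1:**
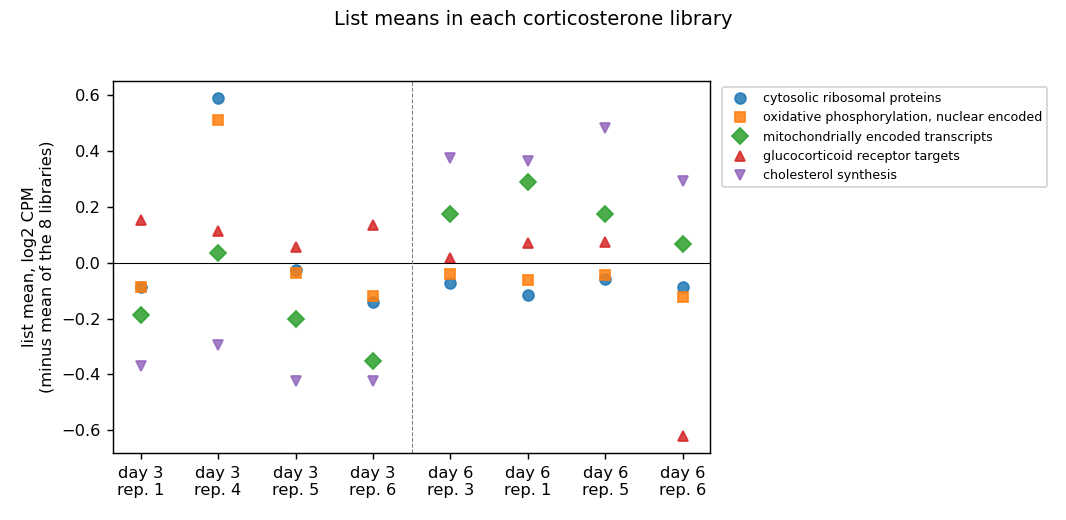
Mean log2 CPM of 5 gene lists in each of the 8 corticosterone libraries (x axis, day and replicate), after subtracting that list's mean over the 8 (y axis, log2 units); each point is 1 library. Day 3 replicate 4 has the highest ribosomal protein mean (8.76, others 8.03 to 8.14) and day 6 replicate 6 the lowest glucocorticoid target mean (5.05, others 5.69 to 5.74 on day 6), while cholesterol synthesis is higher in all 4 day 6 libraries.

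To see how much of the transcriptome moved in these 3 days, day 6 was compared with day 3 for all 13128 genes with limma, and a gene was called at an adjusted p (Benjamini-Hochberg) under 0.05. Levels of 2001 genes rose (15.2%) and 1974 fell, which together is 30.3% of the genes tested. Most changes were small: 103 genes rose at least 2-fold (0.785%) and 60 fell at least 2-fold (0.457%). All 4 day 6 libraries lay above all 4 day 3 libraries for 1519 genes (11.6%) and below them for 1629 (12.4%). Fitted on the 8 libraries alone, without the smaller spread of the other groups, the counts were 864 higher and 765 lower, and without the 2 libraries that stood apart they were 1811 and 1504.

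Vehicle cultures changed over the same days too, with 1685 genes higher (12.8%) and 1464 lower (11.2%). The 2 comparisons share no library. Of the genes that rose with corticosterone, 802 also rose in vehicle, which is 40.1% of the former and 47.6% of the latter. Of those that fell, 710 also fell in vehicle, 36.0% and 48.5% of each. Opposite calls were rare, with 52 genes higher after corticosterone and lower in vehicle and 67 the other way round. A test of the difference between the 2 changes called 553 genes with a more positive change after corticosterone (4.21%) and 643 with a more negative one (4.90%), and at 2-fold or more there were 32 (0.244%) and 117 (0.891%). Below, "difference from vehicle" means this test, as the change after corticosterone minus that in vehicle, in log2 units.

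**Figure D2:**
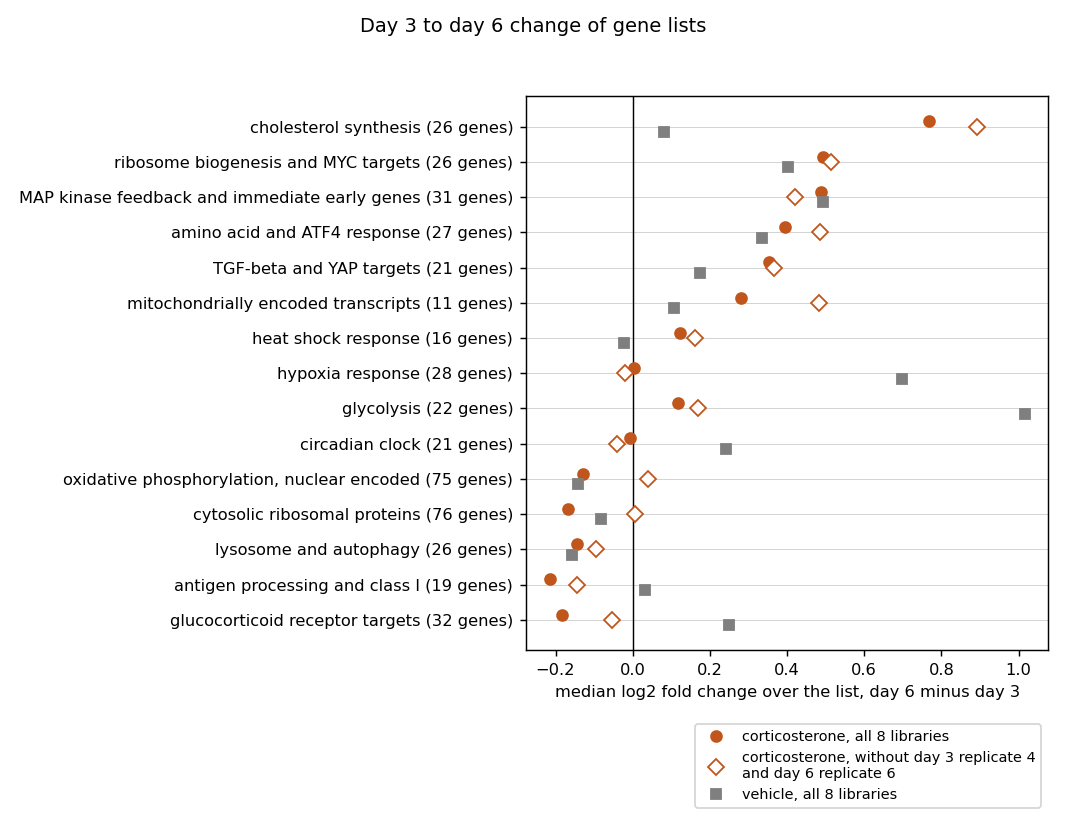
Median log2 fold change from day 3 to day 6 (x axis) of 15 gene lists (y axis, with the number of genes measured). Filled circles are the 8 corticosterone libraries, open diamonds the same without day 3 replicate 4 and day 6 replicate 6, and squares the 8 vehicle libraries; cholesterol synthesis is highest after corticosterone (0.77), while glycolysis (1.02) and hypoxia response (0.70) are highest in vehicle.

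The genes that differed most from vehicle on day 3 were followed to day 6. On day 3, 23.3% of all genes were called higher than vehicle and 25.6% lower. On day 6 the shares were 22.9% and 24.3%, together 47.2%, and 3.36% were at least 2-fold higher. Of 478 genes at least 2-fold higher than vehicle on day 3 (3.64%), 428 were still higher on day 6, and of 428 at least 2-fold lower (3.26%), 390 were still lower. Among 32 of 34 listed glucocorticoid receptor targets that were measured, 27 exceeded vehicle on day 3 and 25 on day 6, with median log2 differences of 1.81 and 1.23. The list was chosen with earlier results of these samples known, Folh1, Cyp4a12a, Igfbp4 and Lcn2 among them, so its direction against vehicle is not independent evidence. From day 3 to day 6 after corticosterone 2 of the 32 rose and 11 fell (median -0.18, against 0.00 over all genes). In vehicle 11 of the 32 rose and 2 fell (median 0.25), and the difference was positive for 1 and negative for 12. Without day 6 replicate 6 the counts after corticosterone were 4 and 8 (median -0.05), and with the 8 libraries fitted alone 2 and 4.

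Sgk1, a kinase that controls epithelial sodium transport, was at 9.47, 9.19, 9.43 and 9.45 log2 CPM in day 3 replicates 1, 4, 5 and 6. On day 6 it was at 9.25, 9.42, 9.05 and 7.20 in replicates 3, 1, 5 and 6. Replicates 3 and 1 of day 6 lay within the day 3 range, replicate 5 was just below it and replicate 6 far below. Here and below, unless SD is stated, ± is the SE of the limma fit. Its spread is pooled over all 7 groups, so it can understate the spread of a gene that 1 library moved. The change of Sgk1, -0.66 ± 0.28 (SE, n = 4 libraries per day), did not pass (limma, adjusted p = 0.0808). It was -0.15 without replicate 6 (adjusted p = 0.496), and it passed without day 6 replicate 3 (-0.83) or 1 (-0.88). Both days were far above vehicle, which lay between 3.11 and 4.01. Fkbp5, a co-chaperone that restrains the receptor, was at 8.97 to 9.37 on day 3, 9.13 to 9.19 in 3 of the day 6 libraries and 8.32 in replicate 6. Its change of -0.28 did not pass. It passed in 4 of the alternatives, among them without both libraries that stood apart (-0.16, limma, adjusted p = 0.0416). Tsc22d3 (GILZ), an anti-inflammatory leucine zipper protein, fell by 0.58 ± 0.14 (adjusted p = 0.00267) and by 0.33 ± 0.08 without replicate 6, but did not pass with the 8 libraries fitted alone (adjusted p = 0.108). Pdk4, a kinase that blocks pyruvate entry into mitochondria, fell by 0.92 ± 0.17 (adjusted p = 1.8e-04), from 6.41 to 6.69 on day 3 to 5.83 to 5.89 in 3 day 6 libraries and 4.84 in replicate 6, and it fell in vehicle as well (-0.71). The arrestin-domain gene Arrdc2 (-0.96 ± 0.16), the mTORC1 inhibitor Ddit4 (-0.50 ± 0.11) and the metallothionein Mt2 (-0.55 ± 0.11) fell and differed from vehicle (differences -1.18, -0.96 and -0.70). Rhob, a small GTPase on the same list, rose by 0.57 ± 0.07.

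Several canonical targets did not pass in either direction. Klf9, a transcription factor of the glucocorticoid response, changed by -0.01 ± 0.10, Per1 by -0.11 ± 0.08, Dusp1, a phosphatase of MAP kinases, by 0.17 ± 0.07 and Zbtb16, a zinc finger repressor, by 0.26 ± 0.35 (adjusted p between 0.0734 and 0.955). Dusp1 passed in 5 of the alternatives, among them without day 3 replicate 4 (0.20, adjusted p = 0.0414). Zbtb16 varied most within a day and ranged from 4.99 to 5.97 on day 3 and from 5.12 to 6.31 on day 6. Day 6 replicate 6 was the lowest of the 4 day 6 libraries for 28 of the 32 targets, against 31.0% of all genes. It was also the lowest for 382 of the 478 genes that had been at least 2-fold above vehicle on day 3 (79.9%) and the highest for 252 of the 428 that had been at least 2-fold below (58.9%, against 26.3% of all genes). In bulk RNA, fewer responding cells and less RNA per cell cannot be told apart.

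**Figure D3:**
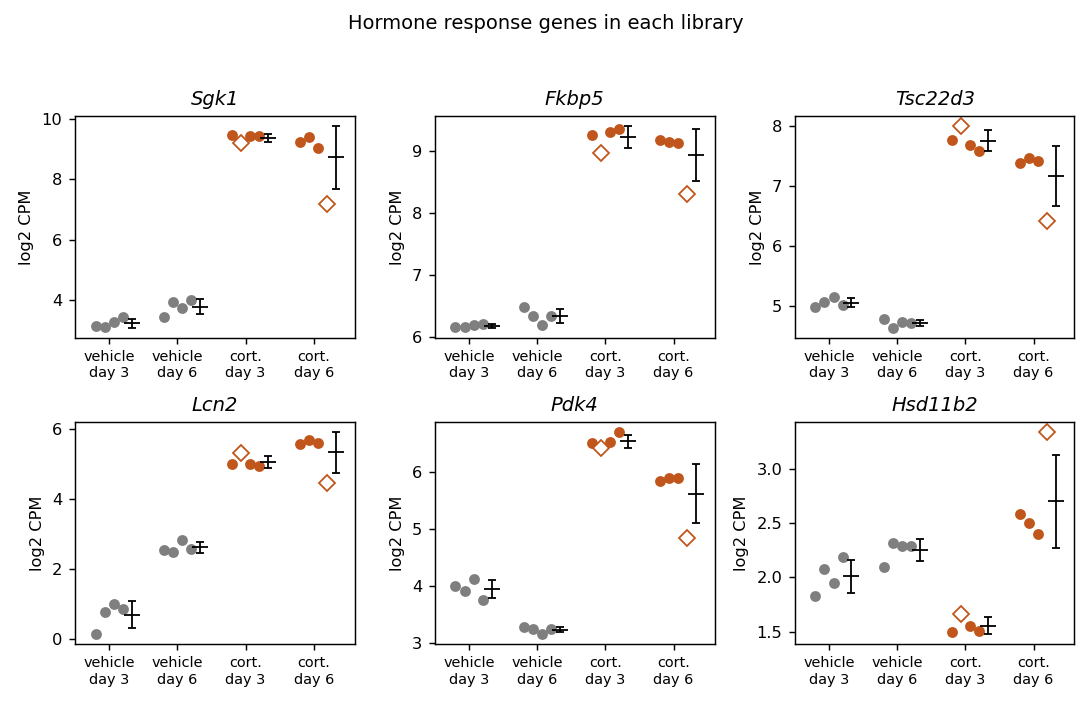
Log2 CPM (y axis) of 5 hormone-raised genes and Hsd11b2 in the 4 libraries of each group (x axis; grey, vehicle; orange, corticosterone), with mean ± SD as black bars and open diamonds for corticosterone day 3 replicate 4 and day 6 replicate 6. The diamond on day 6 is the lowest of its group for Sgk1, Fkbp5, Tsc22d3, Lcn2 and Pdk4 and the highest for Hsd11b2.

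Promoters of 2 targets are shown because they carry the receptor's classic palindrome. The letters GNACA and TGTNC, 3 bases apart, which read the same on both strands, were searched in the 250 bases before each listed start (RefSeq, GRCm38.p6). They were in 4 of 28 targets with a promoter entry (14.3%: Sgk1, Mt1, Map3k6 and Folh1), and in 0.417% of the promoters of 10074 measured genes. The list holds known targets of the receptor, so this share is no independent result. Capitals mark the match, which lies 188 to 176 bases before 1 start of Sgk1 (chr10:21993640-21993889, plus strand) and 198 to 186 bases before that of Folh1 (chr7:86775865-86776114, minus strand). A match is a description of these letters and not a binding site.
Sgk1: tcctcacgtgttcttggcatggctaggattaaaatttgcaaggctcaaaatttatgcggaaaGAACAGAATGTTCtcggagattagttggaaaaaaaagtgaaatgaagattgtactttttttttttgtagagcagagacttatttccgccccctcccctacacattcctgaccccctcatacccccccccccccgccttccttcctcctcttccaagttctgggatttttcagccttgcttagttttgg
Folh1: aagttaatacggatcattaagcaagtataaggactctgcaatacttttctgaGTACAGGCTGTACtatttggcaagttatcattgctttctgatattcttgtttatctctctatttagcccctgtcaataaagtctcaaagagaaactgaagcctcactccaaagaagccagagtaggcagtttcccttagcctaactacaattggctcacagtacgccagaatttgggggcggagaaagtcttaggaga
Between day 3 and day 6 the gene of the first promoter changed as given above, and Folh1, a carboxypeptidase of the cell surface, changed by 0.75 ± 0.47 with no call (adjusted p = 0.236).

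Nr3c1 was at 6.97, 6.36, 7.13 and 6.89 on day 3 and at 7.08, 7.03, 7.10 and 7.22 on day 6. Its rise of 0.27 ± 0.10 (adjusted p = 0.0428) was 0.11 ± 0.07 without day 3 replicate 4, which held the lowest value (adjusted p = 0.243), and the call was also lost with the replicate block (adjusted p = 0.0679) and with the 8 libraries fitted alone (adjusted p = 0.242). Nr3c2, the mineralocorticoid receptor, changed by 0.42 ± 0.27 (adjusted p = 0.257). Hsd11b2, which turns corticosterone into its inactive ketone, rose by 1.15 ± 0.16 (adjusted p = 6.2e-06). It was at 1.5, 1.66, 1.55 and 1.51 on day 3 and at 2.58, 2.5, 2.39 and 3.33 on day 6, so the days did not overlap. Its rise exceeded that of vehicle by 0.91 ± 0.23 (adjusted p = 0.0113), and by 0.70 without day 6 replicate 6, its highest library. Of 18 measured genes of this list 6 rose, among them the chaperone Hsp90aa1 (0.35 ± 0.05), and 1 fell: Akr1c18, a progesterone-reducing enzyme near the lowest values of the table (-4.15 in 1 library), whose call was lost with a pseudocount of 1 (-0.18) or 5 (-0.04). With the 8 libraries fitted alone 3 rose.

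Genes of cholesterol synthesis rose after the medium was replaced. Cells make cholesterol through the mevalonate pathway, and SREBP-2 (Srebf2), released when sterols in the endoplasmic reticulum run low, raises the genes of the pathway. Of 26 measured genes on the list, 22 rose and 0 fell (median 0.77, against 0.00 over all genes). All 22 differed from vehicle in the same direction, and in all of them the 4 day 6 libraries lay above the 4 day 3 libraries. In vehicle 4 rose and 2 fell (median 0.08). With the 8 libraries fitted alone 21 rose, and without the 2 libraries that stood apart 23 did.

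Insig1, a brake on SREBP processing, was at 6.48, 6.52, 6.28 and 6.33 on day 3 and at 7.75, 7.85, 7.99 and 7.67 on day 6. The groups were far apart relative to their spread, and the rise of 1.41 ± 0.06 (adjusted p = 1.6e-15) exceeded that in vehicle by 1.29 ± 0.08 (adjusted p = 5.3e-11). Idi1, an isomerase of the mevalonate pathway, rose by 1.35 ± 0.08, Sqle, which makes squalene epoxide, by 1.19 ± 0.05, and Cyp51, a sterol demethylase, by 1.08 ± 0.05. Each was above its day 3 values in all 4 day 6 libraries, with differences from vehicle of 1.29, 0.83 and 1.13.

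On day 3, 21 of the 26 genes were below vehicle and 0 above, against 25.6% and 23.3% of all genes. On day 6, 11 were below and 1 (Tm7sf2, a sterol reductase) above, against 24.3% and 22.9% of all genes. The comparison on day 6 uses the same day 6 libraries as the change described here. Insig1, Idi1, Hmgcs1 and Fdps differed from vehicle by -0.14, -0.06, -0.02 and -0.16 on day 6 with no call. The 4 members that did not pass were Scap (0.12), Mvk (0.31, and 0.52 with a call without day 3 replicate 4), Pmvk (-0.09) and Ebp (-0.18).

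**Figure D4:**
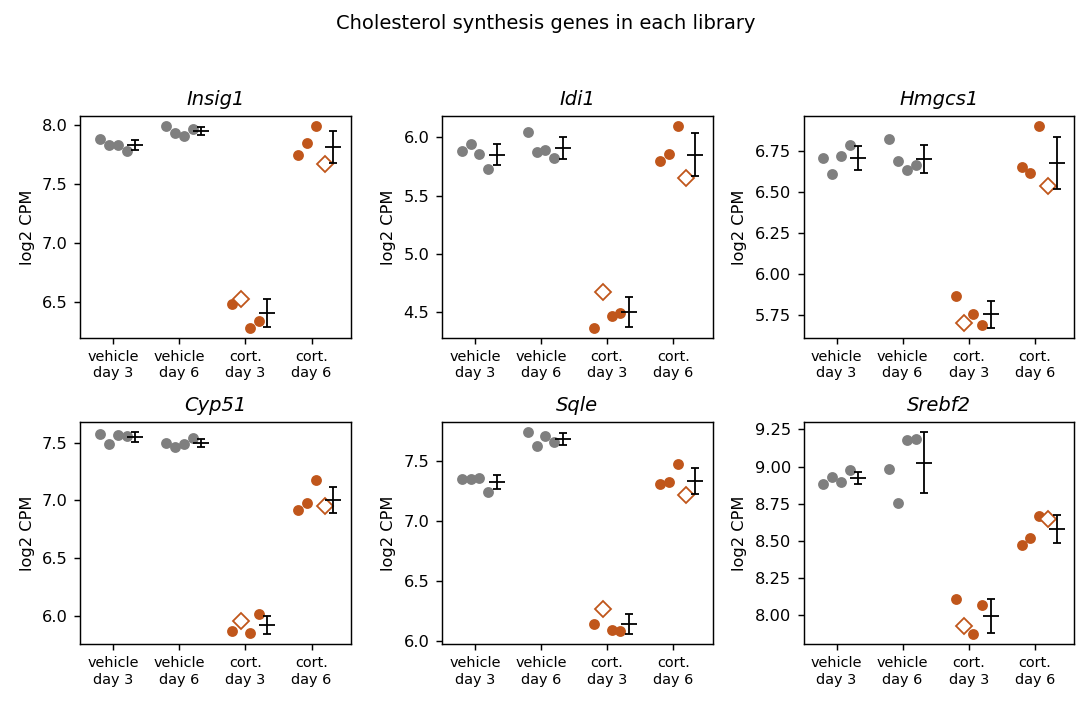
Log2 CPM (y axis) of 6 cholesterol genes in each library of the 4 groups (x axis; grey, vehicle; orange, corticosterone), with mean ± SD as black bars; open diamonds are corticosterone day 3 replicate 4 and day 6 replicate 6. For each gene the 4 corticosterone day 3 libraries sit lowest, for example 6.28 to 6.52 for Insig1 against 7.67 to 7.99 on day 6.

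One promoter of this pathway is shown because it holds the letters of the sterol regulatory element, TCACNCCAC, searched on both strands. Of 18 genes of the list with a promoter entry 1 held them in the 250 bases before its start (5.56%, against 1.21% of all): Hmgcs1, the synthase at the entry of the pathway, named here for this match. The list holds known genes of the pathway, so this share is no independent result. The capitals lie 137 to 129 bases before the start (chr13:119690101-119690350, plus strand, GRCm38.p6, RefSeq).
Hmgcs1: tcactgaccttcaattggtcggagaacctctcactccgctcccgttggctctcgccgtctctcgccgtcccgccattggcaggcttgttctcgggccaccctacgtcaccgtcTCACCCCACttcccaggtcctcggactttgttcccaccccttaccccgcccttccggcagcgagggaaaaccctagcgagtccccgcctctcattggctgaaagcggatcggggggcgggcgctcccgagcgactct
Hmgcs1 rose from 5.69 to 5.87 on day 3 to 6.54 to 6.90 on day 6, a change of 0.92 ± 0.07 (adjusted p = 3.6e-10).

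Fatty acid genes moved less evenly, with 8 of 19 higher and 4 lower (median 0.17). Elovl6, a fatty acid elongase, rose by 0.73 ± 0.08 and Scd1, a desaturase, by 0.45 ± 0.05, each more than in vehicle (differences 0.75 and 0.42). Dgat1 and Dgat2, which make triglyceride, both fell by 0.43.

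The genes with the largest rises and falls were taken among those whose days did not overlap. Ccnd1, the G1 cyclin D1, led the rises: it was at 3.24, 2.63, 2.90 and 2.91 on day 3 and at 5.20, 4.74, 5.01 and 5.20 on day 6, a change of 2.12 ± 0.14 (adjusted p = 2.9e-11). Vehicle rose as well, by 1.51, and the difference did not pass (0.61 ± 0.20, adjusted p = 0.0575). Serpina3n, an acute-phase protease inhibitor with near-identical paralogs, rose by 1.87 ± 0.24, less than in vehicle (3.3). The YAP partner Amot (1.56), the ephrin Efnb2 (1.45), the matricellular gene Ccn2 (1.44), the potassium channel Kcnj16 (1.40) and the natriuretic peptide clearance receptor Npr3 (1.38) also rose. Sox8, a transcription factor, and Npr3 rose by 1.49 and 1.38 while vehicle changed by 0.17 and -0.08, differences of 1.33 and 1.46. Srgap1 (1.62), Sh3tc2 (1.5), Plekhs1 (1.49) and Clstn2 (1.36) rose as well, as did Insig1 and Idi1.

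Npnt, which encodes nephronectin of the basement membrane, fell most. It was at 3.00, 2.52, 2.77 and 3.1 on day 3 and at 1.45, 1.33, 0.88 and 0.13 on day 6 (-1.90 ± 0.26, adjusted p = 3.4e-06). Vehicle did not pass (0.20), and the difference was -2.10 ± 0.36. Npas4, an activity-dependent transcription factor, fell by 1.84 ± 0.19, from 3.94 to 4.23 down to 1.86 to 2.94. Gja1, the gap junction protein connexin 43, fell from 5.72 to 5.90 on day 3 to 3.96 to 4.58 on day 6, by 1.41 ± 0.10, and Npr1, the guanylyl cyclase receptor of atrial natriuretic peptide, by 1.18 ± 0.19. Both differed from vehicle, by -1.27 and -1.56. So Npr1 fell while the clearance receptor Npr3 rose. Padi1, a peptidylarginine deiminase (-1.27), the fatty acid transporter Slc27a3 (-1.24), the kinase gene Srpk3 (-1.55) and Klhl30 (-1.24) fell, and their changes were more negative than in vehicle. For Adamtsl2 (-1.55), the phosphatase Ptpn22 (-1.54), Flvcr2 (-1.31), the heme-binding Hebp1 (-1.17), Cstad (-1.15) and Cox20 (-1.15) the difference from vehicle did not pass. Day 3 replicate 4 held the highest value of Adamtsl2, Ptpn22, Hebp1 and Cox20, and without it the falls were 1.32 for Adamtsl2, 1.34 for Ptpn22 and 0.85 for Cox20. Flvcr2 lost its call without day 6 replicate 6 (-1.07, adjusted p = 0.0592).

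Ribosome biogenesis, amino acid supply and MAP kinase feedback rose after corticosterone and rose in vehicle too. Of 26 nucleolar and MYC-target genes 22 rose (median 0.49), against 21 in vehicle (median 0.40), and 1 differed between the media, Rrp12 (0.24). The transcription factor Myc was at 6.02 to 6.22 on day 3 and 7.06 to 7.25 on day 6, a rise of 1.04 ± 0.10 beside 1.06 in vehicle (difference -0.02 ± 0.13, adjusted p = 0.949). The nucleolar GTPase gene Gnl3 rose by 0.68 ± 0.05 and the rRNA methyltransferase Nop2 by 0.53 ± 0.05. Of 27 genes of the ATF4 program, which restores amino acids under stress, 21 rose (median 0.39) and 22 did in vehicle. Stc2, a secreted glycoprotein, rose by 0.76 ± 0.05, the serine synthesis enzyme Psat1 by 0.72 ± 0.05, the pseudokinase Trib3 by 0.79 ± 0.07 and asparagine synthetase Asns by 0.42 ± 0.05. With the 8 corticosterone libraries fitted alone, 17 of the nucleolar and 12 of the ATF4 genes rose.

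MAP kinase feedback and immediate early genes rose in 19 of 31 cases and fell in 1, Dusp7, with a median of 0.49. In vehicle 20 rose, also with a median of 0.49. Spry1, an inhibitor of receptor tyrosine kinase signalling, rose from 5.68 to 5.86 up to 6.80 to 7.0 (1.10 ± 0.06), Fosl2, an AP-1 subunit, by 0.87 ± 0.08 and the EGF receptor ligand Hbegf by 0.67 ± 0.06. Spry1 and Fosl2 rose more than in vehicle, by 0.41 and 0.55, and Hbegf did not (0.10 ± 0.08). Of 21 TGF-beta and YAP targets 12 rose and 0 fell (median 0.35). In vehicle 8 of them rose and 4 fell (median 0.17), and the difference was positive for 5 and negative for 0. Ankrd1, a nuclear YAP target, rose by 1.03 ± 0.06 and the matricellular Ccn1 by 0.53 ± 0.07. The rise of Ankrd1 exceeded vehicle by 0.56.

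Cell cycle genes remained low although Ccnd1 rose. Of 50 DNA replication and mitosis genes, all 50 had been below vehicle on day 3, and 49 were still below on day 6. Among all genes, 25.6% were below vehicle on day 3 and 24.3% on day 6. From day 3 to day 6, 12 rose and 3 fell (median 0.08), against 18 and 0 in vehicle (median 0.19). Without day 6 replicate 6 the counts were 5 and 3, and fitted alone the 8 libraries gave 2 higher. E2f2, an activator of replication genes, rose by 0.90 ± 0.19 and Tk1, a thymidine kinase, by 0.24 ± 0.06, the latter less than in vehicle (difference -0.35). The proliferation marker Mki67 rose by 0.19, beside 0.27 in vehicle, and its call was lost without either library that stood apart (0.12).

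Hypoxia and glycolysis genes rose in vehicle cultures between day 3 and day 6, and most of them differed from that after corticosterone. Hypoxia-inducible factors escape the prolyl hydroxylases (Egln1, Egln3) when oxygen is low and raise genes for glycolysis, mitochondrial clearance and vessel growth. In vehicle 21 of 28 hypoxia genes rose and 1 fell (median 0.70). After corticosterone 5 rose and 6 fell (median 0.00), and the difference was negative and called for 17 and positive for 0. Among 22 glycolysis genes 18 rose and 2 fell in vehicle (median 1.02), 4 rose after corticosterone (median 0.12), and 14 had a negative difference. Without day 3 replicate 4, 10 glycolysis genes rose and 1 fell after corticosterone. With only the groups compared, 1 gene of each list rose after corticosterone. The 17 hypoxia genes were as many without day 3 replicate 4, without day 6 replicate 6 and with only the 16 libraries fitted.

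Egln3, an oxygen-sensing hydroxylase that is itself induced by hypoxia, was at 1.65, 1.33, 1.32 and 1.47 on day 3 of corticosterone and at 1.27, 1.23, 1.32 and 1.38 on day 6. In vehicle it went from 1.67 to 2.15 on day 3 up to 5.67 to 6.12 on day 6. The corticosterone days overlapped and the vehicle days lay apart, a difference of -4.15 ± 0.21 (adjusted p = 5.8e-13). Adm, the vasodilator adrenomedullin, had another starting point: it was already at 3.03 to 3.6 on day 3 of corticosterone and at 1.51 to 3.22 on day 6 (-0.80 ± 0.35, adjusted p = 0.0838), while vehicle rose from between -1.47 and -0.42 to between 2.57 and 3.36. The difference was -4.78 ± 0.49 (adjusted p = 1.8e-07), and -1.66 with a pseudocount of 5. Vehicle lay below 1 CPM on day 3. On day 6 the 2 media did not differ with a call (-0.42). Ankrd37, an ankyrin repeat gene, stayed between -0.39 and 0.66 in all 8 corticosterone libraries and differed by -3.80 ± 0.33.

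Bnip3, a receptor for mitophagy, fell after corticosterone, from 6.58, 6.75, 6.66 and 6.48 to 6.11, 6.16, 6.13 and 5.65 (-0.60 ± 0.13, adjusted p = 6.7e-04), while vehicle rose by 2.18. Pdk1, which holds pyruvate back from mitochondria, fell by 0.33 ± 0.12 (adjusted p = 0.0332) beside a rise of 2.26 in vehicle, and its call was lost without day 6 replicate 6 (adjusted p = 0.0651). Fam162a, a mitochondrial hypoxia gene, changed by -0.21 ± 0.15 and Egln1 by 0.00 ± 0.08, with differences of -2.53 and -1.40. P4ha1, a collagen prolyl hydroxylase, was among the 5 that rose, by 0.27 ± 0.08, beside 1.71 in vehicle. In glycolysis, Ldha, which makes lactate, changed by 0.14 ± 0.08 beside 1.92, the phosphofructokinase Pfkl by -0.10 ± 0.10 beside 1.89, Gpi1 by -0.05 ± 0.07 beside 1.40 and pyruvate kinase Pkm by 0.13 ± 0.05 beside 1.28. Hif1a, whose protein is the regulated subunit, changed by 0.03 and by -0.06 in vehicle with no call, and Anln, an actin-binding gene of the list, rose by 0.32 and 0.31.

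**Figure D5:**
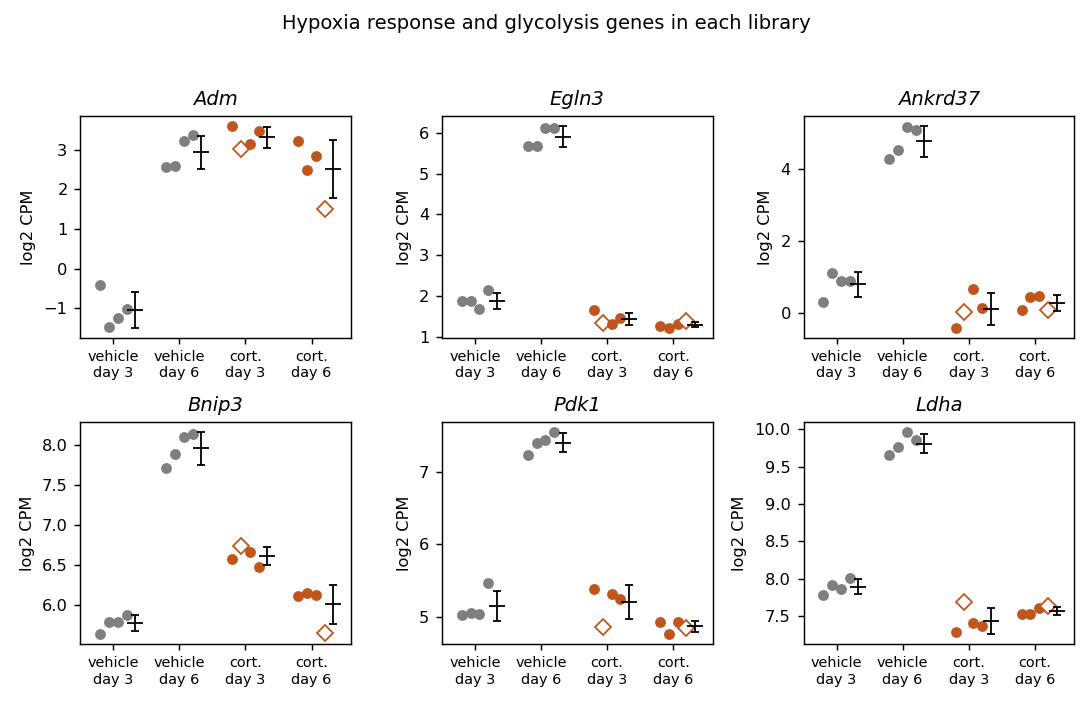
Log2 CPM (y axis) of 5 hypoxia response genes and Ldha in each library of the 4 groups (x axis; grey, vehicle; orange, corticosterone), with mean ± SD as black bars; open diamonds are corticosterone day 3 replicate 4 and day 6 replicate 6. Vehicle rises from day 3 to day 6 in every panel (for Egln3 from 1.67 to 2.15 up to 5.67 to 6.12), while the corticosterone days overlap in every panel but that of Bnip3.

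Promoters of 4 of these genes are shown because the core of the hypoxia response element was common in the lists. The letters ACGTG, on either strand, were in the 250 bases before a start of 14 of 21 hypoxia genes with an entry (66.7%) and of 11 of 22 glycolysis genes (50%), against 24.8% of 10074 measured genes. The lists hold known targets of the factor, so this share is no independent result. Capitals mark the match or its reverse CACGT, and a run CACGTG holds both. Positions are chr12:54203875-54204124 (minus) for Egln3, chr7:138909507-138909756 (minus) for Bnip3, chr10:59323046-59323295 (plus) for P4ha1 and chr7:46845554-46845803 (plus) for 1 start of Ldha, all GRCm38.p6 from RefSeq.
Egln3: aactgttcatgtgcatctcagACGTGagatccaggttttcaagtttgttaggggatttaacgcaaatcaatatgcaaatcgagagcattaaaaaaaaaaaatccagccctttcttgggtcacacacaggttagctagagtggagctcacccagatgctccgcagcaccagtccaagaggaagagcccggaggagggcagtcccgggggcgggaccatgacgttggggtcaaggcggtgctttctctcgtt
Bnip3: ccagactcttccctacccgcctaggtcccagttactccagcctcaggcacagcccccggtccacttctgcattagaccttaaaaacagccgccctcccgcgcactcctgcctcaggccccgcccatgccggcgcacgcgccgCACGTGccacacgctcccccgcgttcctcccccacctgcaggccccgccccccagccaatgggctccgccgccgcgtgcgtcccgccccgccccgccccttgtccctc
P4ha1: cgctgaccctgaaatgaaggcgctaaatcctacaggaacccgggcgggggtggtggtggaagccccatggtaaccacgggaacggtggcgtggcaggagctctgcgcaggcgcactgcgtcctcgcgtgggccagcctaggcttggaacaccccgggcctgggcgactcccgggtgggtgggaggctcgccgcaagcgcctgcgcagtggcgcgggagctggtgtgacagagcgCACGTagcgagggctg
Ldha: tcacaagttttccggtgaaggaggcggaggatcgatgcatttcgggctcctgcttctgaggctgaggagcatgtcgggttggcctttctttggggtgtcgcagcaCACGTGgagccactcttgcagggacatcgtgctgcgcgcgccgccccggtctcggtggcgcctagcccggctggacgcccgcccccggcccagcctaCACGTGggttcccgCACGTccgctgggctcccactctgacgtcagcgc
Egln3 and P4ha1 hold 1 match each, Bnip3 holds 2 in 1 overlapping run and Ldha holds 5. The number of matches and the change between days are given side by side, and no relation between them was tested.

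Mitochondrially encoded transcripts, the respiratory chain subunits read from mitochondrial DNA, took 7.11 ± 0.36% of CPM on day 3 and 8.61 ± 0.41% on day 6 (SD, n = 4 each). The rise of 1.5 percentage points separated all 4 libraries of each day (two-sided exact permutation p = 0.0286, the smallest that 70 splits allow), and it was 0.232 points after quantile normalization. Of 11 measured members 7 rose and 0 fell (median 0.28), but under quantile normalization 4 rose and 2 fell. mt-Nd2, a complex I subunit, went from 11.09 to 11.29 up to 11.77 to 11.91 (0.65 ± 0.06), more than in vehicle by 0.38, and mt-Nd1 and mt-Nd4, of the same complex, rose by 0.49 ± 0.05 and 0.61 ± 0.07.

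Counts of nuclear genes of oxidative phosphorylation and of the ribosome moved with the libraries left out. Among all 13128 genes 2001 rose and 1974 fell after corticosterone. Of 75 oxidative phosphorylation genes 0 rose and 8 fell (median -0.13), a smaller share of falls than among all genes. In vehicle 13 of the 75 fell, against 11.2% of all genes. Of 76 cytosolic ribosomal proteins 0 rose and 21 fell after corticosterone (median -0.17), a larger share of falls than among all genes. Without day 3 replicate 4, in which short transcripts were high, the counts were 4 and 4 (median 0.02) and 11 and 9 (median 0.00). Without day 3 replicate 6 the falls were 15 and 34, without day 3 replicate 1 there were 14 for oxidative phosphorylation, and without day 6 replicate 1 there were 12 for ribosomal proteins. In neither list did a gene fall with the 8 libraries fitted alone (0 of each). Rpl7, a large-subunit protein, was at 9.46, 10.16, 9.55 and 9.35 on day 3 and at 9.11 to 9.17 on day 6. Its fall of 0.50 ± 0.10 was 0.33 ± 0.04 without replicate 4, and those of Rpl17, Rps7 and Uqcrh, a complex III subunit, went from 0.49, 0.43 and 0.54 to 0.30, 0.27 and 0.33. With the 8 libraries fitted alone the falls of Rpl7, Rpl17, Rps7 and Uqcrh did not pass (adjusted p = 0.0605, 0.0819, 0.0817 and 0.0694). Ndufc1, of complex I, fell by 0.56, by 0.39 without it, and with no call in the 8 libraries alone (adjusted p = 0.0528). Ribosomal protein genes have many near-identical copies, so their values are uncertain. In the tricarboxylic acid cycle Idh1 changed by 0.02 ± 0.06 and Dld rose by 0.23 ± 0.06, while vehicle changed by -0.47 and -0.15 (differences 0.49 and 0.38). In fatty acid oxidation, 1 of 24 genes rose, the thioesterase Acot2 (0.55 ± 0.08), and 8 fell, among them Cpt1c (-0.49 ± 0.07). In vehicle 1 of the 24 rose and 13 fell, and the difference was positive for 2 and negative for 0. Without day 3 replicate 4, 2 rose and 5 fell after corticosterone, and with the 8 libraries fitted alone 3 fell.

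Clock genes of the activating arm rose and some of their targets fell. Arntl (BMAL1), the activating partner of Clock, was at 3.90 to 3.95 on day 3 and at 4.58 to 4.72 on day 6 (0.74 ± 0.05, adjusted p = 7.2e-11), and Clock rose by 0.41 (0.25 without day 3 replicate 4). Targets of that pair fell: Dbp from 5.23 to 5.66 down to 4.18 to 4.52, Per3 by 0.80 ± 0.05 and Tef by 0.61 ± 0.06. Day 3 and day 6 did not overlap for any of these 5 genes. Arntl (0.50), Dbp (-0.98), Per3 (-1.0) and Tef (-0.68) differed from vehicle. Of 21 clock genes 5 rose and 5 fell after corticosterone, against 2001 and 1974 of all 13128 genes. In vehicle 11 of the 21 rose and 0 fell, against 12.8% and 11.2% of all genes. The difference was positive for 2 and negative for 10, against 4.21% and 4.90% of all genes. With only the groups compared 2 of the 21 rose and 3 fell after corticosterone, and 1 had a positive and 6 a negative difference. Without day 6 replicate 6 the differences were also positive for 1 and negative for 6. The clock time of collection was not given in the sources used here.

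Of 19 genes of class I antigen presentation 0 rose and 8 fell (median -0.22), against 1 and 2 in vehicle. H2-T23, a nonclassical class I gene that restrains natural killer cells, was at 4.16, 4.61, 4.19 and 4.18 on day 3 and at 3.15, 3.14, 3.14 and 2.95 on day 6 (-1.19 ± 0.09, adjusted p = 3.6e-10), and it differed from vehicle by -1.38. H2-K1 fell by 0.50 ± 0.06, H2-Q4 by 0.48 ± 0.08 and H2-T22 by 0.39 ± 0.07. These genes are near-identical to one another, so reads may have been shared among them, and day 3 replicate 4 was the highest library for each of the 4 (without it 6 of the list fell). Of 44 interferon-stimulated genes 6 rose and 5 fell, a smaller share than of all genes. Leaving out 1 corticosterone library at a time gave 0 to 5 that rose, with 3 without day 3 replicate 1, day 3 replicate 4 or day 6 replicate 6, 1 without day 6 replicate 3 and 0 without day 6 replicate 1. A fit of the 8 libraries alone gave 0 that rose and 3 that fell. In this list 9 had a negative difference from vehicle, among them Ifi207 (-1.23), Cmpk2 (-0.92) and Oasl2 (-0.82), which changed by 0.38 ± 0.15, -0.02 ± 0.09 and 0.07 ± 0.09 after corticosterone with no call. The difference of Ifi207 was -0.33 with a pseudocount of 5 (adjusted p = 0.0754).

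Of 22 cytokines and chemokines 6 rose and 1 fell, against 14 and 1 in vehicle. Csf1, the macrophage growth factor, rose from 6.96 to 7.21 up to 8.01 to 8.24 (1.07 ± 0.08, 0.66 more than in vehicle), Cxcl12 by 0.66 ± 0.04 and the interferon-induced chemokine Cxcl10 by 0.53 ± 0.07. Of 14 complement and acute-phase genes 3 rose and 2 fell after corticosterone (median 0.04), against 2001 and 1974 of all 13128 genes. In vehicle 7 of the 14 rose and 1 fell, against 12.8% and 11.2% of all genes. The difference was positive for 1 and negative for 8, against 4.21% and 4.90% of all genes. Lcn2, the siderophore-binding lipocalin, was at 4.96 to 5.33 on day 3, at 5.59 to 5.69 in 3 day 6 libraries and at 4.48 in replicate 6, with no call (0.26 ± 0.23), while vehicle rose by 1.92 (difference -1.66). That difference was -1.37 without replicate 6, and -0.51 with no call with a pseudocount of 5 (adjusted p = 0.0987). Cp, the ferroxidase ceruloplasmin, rose by 0.44 ± 0.07, less than in vehicle by 0.58.

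Lysosomal and p53 genes held more falls than rises in both media. Of 26 lysosome and autophagy genes 0 rose and 12 fell (median -0.14), against 15 lower in vehicle: Wipi1, of autophagosome formation, by 0.46 ± 0.04, the galactosidase Glb1 by 0.43 ± 0.06 and the cholesterol exporter Npc1 by 0.36 ± 0.06. Of 21 p53 targets 3 rose and 8 fell, against 3 and 12. With the 8 libraries fitted alone 7 lysosomal and 3 p53 genes fell. Ccng1 fell by 0.49 ± 0.04 and Sesn1, a stress sensor, by 0.63 ± 0.06, while Gadd45a, a growth arrest gene, rose by 1.11 ± 0.08, from 4.78 to 5.09 up to 5.98 to 6.14. Of 16 heat shock genes 6 rose, among them the mitochondrial chaperonin Hspd1 (0.41 ± 0.04), and 1 fell, the small heat shock protein gene Hspb1, whose call was lost without day 3 replicate 4 (-0.23, adjusted p = 0.0722).

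Matrix and epithelial genes changed in both directions. Of 33 matrix genes 12 rose and 6 fell: Timp3, a metalloproteinase inhibitor, rose by 0.87 ± 0.05 and tenascin C (Tnc) by 0.71 ± 0.05, while the collagen Col5a1 fell by 0.47 ± 0.05. Dcn, the proteoglycan decorin, moved in opposite directions, from 6.3 to 6.68 down to 5.56 to 5.77 after corticosterone (-0.82 ± 0.10) and up by 0.69 in vehicle. Of 12 measured epididymal markers, of 41 listed, 6 rose and 1 fell, Npc2 (-0.32 ± 0.07). In vehicle 5 rose and 1 fell, and the difference from vehicle was positive for 2 and negative for 2. Pax8, a transcription factor of duct epithelium, rose by 0.53 ± 0.06 and Cftr, the chloride channel, by 0.48 ± 0.10, both more than in vehicle. Of 19 epithelial junction and keratin genes 4 rose and 3 fell, against 4 and 2 in vehicle, shares not far from those of all genes. Krt18, a simple epithelial keratin, fell by 0.48 ± 0.09 (0.32 without day 3 replicate 4), while Cdh1, E-cadherin, rose by 0.44 ± 0.13 (0.32 with no call without day 6 replicate 6) and the integrin Itgb6 by 0.34 ± 0.07. With the 8 libraries fitted alone Krt18, Cdh1, Itgb6 and Npc2 did not pass (adjusted p = 0.0592, 0.109, 0.16 and 0.078), nor did Itgb6 with a pseudocount of 5 (adjusted p = 0.105). The cornified envelope genes Sprr1a and Sprr2g rose by 1.23 ± 0.18 and 0.92 ± 0.18, less than in vehicle by 1.37 and 1.21.

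Among markers of other cells, few of leukocytes and germ cells were among the genes tested, and those of fibroblasts and smooth muscle had the largest sums. Of 21 leukocyte markers 4 were among the genes tested (Cd68, Cd14, Csf1r and Cd8a) and summed to 35.5 to 50.3 CPM on day 3 and 37.0 to 46.5 on day 6. Of 12 endothelial markers 6 were, with sums of 25.8 to 35.4 and 24.6 to 29.8, and of 13 germ cell markers 2 were. Fibroblast and smooth muscle markers (10 of 18) summed to 588 to 816 CPM on day 3 and 662 to 717 on day 6. Of these 10, 3 rose and 4 fell, among them Pdgfrb (-0.62 ± 0.06) and S100a4 (-0.87 ± 0.13, -0.65 without day 3 replicate 4). In vehicle the fibroblast sums were 686 to 722 CPM on day 3 and 875 to 965 on day 6, and the leukocyte sums 69.7 to 75.2 and 93.4 to 105, without overlap. Their part in the other results was not tested.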

How the data were processed

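The deposited values are log2 CPM, described in the file name as normalized, for 13129 entries in 28 libraries. The submitters' processing notes name kallisto, edgeR 3.40.1, limma 3.54.0 and mm10 without role or order. How the authors normalized, their prior count and the read totals are not given in the sources used here. Only 13.8 to 17.3% of low values lay on whole-read steps (tolerance 0.02), so no count model was run. An entry without a symbol (0.0453 to 0.0698% of CPM) was left out. Requiring a log2 CPM over 0 in 4 or more libraries removed 0 genes.

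All groups were fitted together, each with its own mean, in limma 3.58.1 (R 4.3.3), which left 21 residual degrees of freedom and used the intensity trend. Contrasts were day 6 minus day 3 after corticosterone and in vehicle, their difference, and corticosterone minus vehicle on each day. Fold changes are on the scale deposited, ± SE of this fit with its pooled spread, n = 4 per group. The fit was also run on simulated data, in which each gene had the same spread in all groups. The larger spread on day 3 of corticosterone was therefore not covered by that run. Transcript lengths came from GENCODE M21, for 12918 genes (98.4%), and promoters from RefSeq. The closest pair of libraries differed by 0.282 log2 units (root mean square).

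Named genes were the 15 largest rises and falls with no overlap between days and mean log2 CPM of at least 1 (predicted gene models passed over), the 8 largest differences from vehicle each way, receptor genes and canonical targets, and up to 5 members of each list with the smallest p. Others named (list members at a count's edge, Hmgcs1, Folh1) were chosen after their values were seen. Some genes that the rule names are not reported here. Members and lists were chosen with earlier results of these data known. Alternatives were other filters, pseudocounts, scalings, spread models, the replicate block and leaving out libraries.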

Additional observations from a re-analysis of the deposited data

Results flagged for a closer look

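Single libraries lay far from the other 3 of their day in 32 of 320 groups of 4, of which 15 were day 3 replicate 4, 15 day 6 replicate 6 and 2 other libraries; chance gives about 1 in 20. Values are log2 CPM.

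Day 3 replicate 4 was high for H2-T23 (4.61, others 4.16 to 4.19), Fam162a (5.17, others 4.44 to 4.49), Uqcrh (8.31, others 7.43 to 7.57) and Rpl17 (8.61, others 7.74 to 7.89). It was also high for H2-K1 (6.01, others 5.63 to 5.69), H2-T22 (5.69, others 5.28 to 5.34), Cxcl10 (3.32, others 3.02 to 3.05) and S100a4 (4.92, others 3.99 to 4.14). It was low for Sgk1 (9.19, others 9.43 to 9.47), Klf9 (6.77, others 7.14 to 7.20), Ptprz1 (1.88, others 2.45 to 2.54) and Dld (6.45, others 6.61 to 6.61).

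Day 6 replicate 6 was low for Gja1 (3.96, others 4.51 to 4.58), H2-T23 (2.95, others 3.14 to 3.15), Fkbp5 (8.32, others 9.13 to 9.19), Tsc22d3 (6.41, others 7.38 to 7.46), Sgk1 (7.20, others 9.05 to 9.42) and Pdk4 (4.84, others 5.83 to 5.89). It was also low for Bnip3 (5.65, others 6.11 to 6.16), Fam162a (4.41, others 4.44 to 4.45), Lcn2 (4.48, others 5.59 to 5.69) and Sesn1 (8.27, others 8.65 to 8.66). It was high for Kcnj16 (6.21, others 5.94 to 5.96), Klhl30 (2.27, others 1.60 to 1.70) and Gadd45a (6.14, others 5.98 to 6.00). Day 6 replicate 5 was high for Ptpn22 (1.98, others 1.61 to 1.66).

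Of list means, day 3 replicate 4 was high for nuclear oxidative phosphorylation (7.53) and ribosomal proteins (8.76) and low for epididymal markers (3.63). Day 3 replicate 1 was high for the hypoxia response (5.00). Day 6 replicate 6 was low for glucocorticoid receptor targets (5.05) and for complement and acute phase (4.04).

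The change from day 3 to day 6 differed between corticosterone and vehicle by the interaction term of the limma fit for 553 genes upward and 643 downward. Upward differences (log2 units) were 1.51 for Calcrl, whose call was lost in 13 of the settings tried, 1.46 for Npr3, 1.36 for Ptprz1, 1.33 for Sox8, 1.29 each for Idi1, Insig1 and Fat2, 0.49 for Idh1 and 0.38 for Dld. Calcrl, the receptor of adrenomedullin, was at 1.23 to 1.64 on day 3 and at 2.30 to 2.66 in 3 day 6 libraries but 1.16 in replicate 6, without which the difference was 1.83 (adjusted p = 0.00855). Ptprz1, a receptor phosphatase, rose by 1.25 ± 0.11, and Fat2, an atypical cadherin, by 1.64 ± 0.15, though the difference for Fat2 was 0.19 with a pseudocount of 5 (adjusted p = 0.0656). Downward differences were -4.78 for Adm, -4.15 for Egln3, -3.80 for Ankrd37, -2.79 for Bnip3, -2.59 for Pdk1, -2.53 for Fam162a, -2.00 for Pfkl and -1.78 for Ldha. Further ones were -1.66 for Lcn2, -1.45 for Gpi1, -1.44 for P4ha1, -1.40 for Egln1, -1.37 for Sprr1a, -1.23 for Ifi207, -1.21 for Sprr2g, -1.15 for Pkm, -0.92 for Cmpk2, -0.82 for Oasl2 and -0.58 for Cp.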

How the results depend on the processing

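Fitting only the groups compared gave fewer calls: 864 genes higher and 765 lower after corticosterone, and 338 and 428 for the difference from vehicle. Of these, 850, 749, 331 and 409 were also called with all groups. Weights per library gave 912 genes with a positive difference and 2360 lower in vehicle. Leaving out 1 library at a time gave 1680 to 2177 higher and 1619 to 2194 lower after corticosterone, 421 to 725 and 488 to 724 for the difference, and 1.32 to 1.65 percentage points for the mitochondrial share. The remaining counts over all genes stayed within 1.5 times, but 347 counts over gene lists moved further and 2321 did not.

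Replicate numbers were shared in part (day 3: 1, 4, 5, 6; day 6: 3, 1, 5, 6). Deviations of same-numbered libraries correlated at 0.10, 0.14 and 0.06 for numbers 1, 5 and 6, and not every library correlated best with its own number. With 4 libraries per day, these values cannot tell whether same-numbered libraries shared a culture or batch. With a replicate block 1865 genes were higher and 1831 lower after corticosterone, 1749 and 1512 in vehicle, and 503 and 602 for the difference.

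Of the named genes' values under the alternatives, 48 lost and 11 gained a call and none changed sign with a call on both sides. Calls of Nr3c1 were lost without day 3 replicate 4 (0.11) or day 6 replicates 3, 1, 5 or 6, and with the replicate block, quantile normalization, no trend, library weights or the groups alone, that of Cdh1 (0.32) and Flvcr2 (-1.07) without day 6 replicate 6. Fkbp5 passed without day 3 replicate 4 (-0.37), without day 6 replicate 3 (-0.36) or 1 (-0.35), and without both libraries that stood apart (-0.16). Read totals are unknown, so no depth limit can be given. Leaving out both libraries that stood apart was chosen after seeing the data.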
